A study of Mus musculus with 4 samples.

Results

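The MAP kinase phosphatases of the DUSP family were followed in mouse liver after 1 or 2 rounds of exposure to ethylbenzene, an aromatic solvent. The 9 genes were taken by name, as the probe sets that the platform annotation assigns to Dusp1, Dusp2, Dusp4, Dusp5, Dusp6, Dusp7, Dusp8, Dusp10 and Dusp16, and all 9 were among the 18194 genes with a symbol on the array. The mean signal of 7 of them over the 4 arrays reached the median of all probe sets, the low-level filter, which 11523 genes passed. Dusp2 and Dusp5 lay below it and are given as values only. The animals were C57BL/6J mice, 2 months old, and the labels name no genetic change. Group names give the earlier exposure before the plus sign and the later one after it, each with ethylbenzene (E, 7 mmol per kg) or phosphate-buffered saline (P). The first exposure was a pair of intraperitoneal injections 24 h apart, the second came 7 days later, and livers were taken 5 h after it. P+P received saline both times (RNA of 3 mice), E+P the solvent and then saline (3 mice), P+E saline and then the solvent (5 mice), and E+E the solvent both times (5 mice). RNA was pooled by group and each pool hybridised to 1 Affymetrix array. Without replicates, none of the differences below could be set against variation between mice. Pool size went with the second exposure and cannot be told apart from it.

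DUSP phosphatases remove phosphate from both the threonine and the tyrosine of the activation loop of MAP kinases (ERK, JNK and p38) and so switch these kinases off. Many are themselves transcribed in response to MAP kinase signalling, which makes them feedback brakes. Dusp1, Dusp2, Dusp4 and Dusp5 encode nuclear, inducible enzymes, Dusp6 and Dusp7 encode cytoplasmic enzymes that prefer ERK, and Dusp8, Dusp10 and Dusp16 encode enzymes that prefer JNK and p38.

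The deposited values were linear probe set signals, which the authors had scaled so that the mean after trimming 2% at each end was 500.0 on every array. Median signals lay between 129.9 and 153.1. The 3 control probe sets for 18S ribosomal RNA had a geometric mean signal of 1872 on P+P and between 122 and 182 elsewhere. Each comparison with P+P below therefore stands beside one that does not use it: P+E against P+P beside E+E against E+P, and E+P against P+P beside E+E against P+E. Of 10 hepatocyte markers 9 were measured, all 9 passed the filter and none differed 2-fold or more in one direction after both second exposures. Alb, the albumin gene, had signals from 145040 (P+P) to 196579 (E+E). In whole liver, a change in the number of cells of a type and a change in RNA per cell cannot be told apart.

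Sequences before the annotated start of 3 members are printed here because Dusp8 was the member with the largest ratios, Dusp1 carries the same element without such a ratio, and Dusp6 was higher with none of the searched motifs. Dusp8 was chosen by a rule of size, and the other pair after their values were seen. They are the 250 bases before the start in RefSeq (GRCm38.p6), read 5′ to 3′ on the gene's strand: chr7:142095285-142095534 (minus strand) for Dusp8, chr17:26508473-26508722 (minus strand) for Dusp1 and chr10:99262981-99263230 (plus strand) for Dusp6. The RefSeq record of Dusp8 also holds transcript models that start further upstream. Capitals mark motif matches.

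Dusp8: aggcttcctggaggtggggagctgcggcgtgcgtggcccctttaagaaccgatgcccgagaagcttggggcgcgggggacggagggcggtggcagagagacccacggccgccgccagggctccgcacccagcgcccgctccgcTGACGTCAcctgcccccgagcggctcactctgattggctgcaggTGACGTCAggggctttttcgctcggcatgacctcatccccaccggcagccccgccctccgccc

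Dusp1: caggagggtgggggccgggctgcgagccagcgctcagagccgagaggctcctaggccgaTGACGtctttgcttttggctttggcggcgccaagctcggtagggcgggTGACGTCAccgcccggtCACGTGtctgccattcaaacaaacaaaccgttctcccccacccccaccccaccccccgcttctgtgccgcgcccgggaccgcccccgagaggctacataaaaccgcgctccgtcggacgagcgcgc

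Dusp6: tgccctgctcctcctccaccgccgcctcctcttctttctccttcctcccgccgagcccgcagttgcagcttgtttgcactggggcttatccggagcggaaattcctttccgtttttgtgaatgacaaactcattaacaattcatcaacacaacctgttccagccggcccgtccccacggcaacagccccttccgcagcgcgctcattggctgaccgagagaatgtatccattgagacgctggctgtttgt

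The Dusp8 sequence held 2 copies of the full cAMP response element (CRE, TGACGTCA), at 107 to 100 and at 63 to 56 bases before the start. The element is bound by CREB and ATF proteins. At least 1 copy was found in 508 of 32851 RefSeq windows of this length (1.55%), and at least 2 in 10 of them (0.030%). Windows with at least 2 matches were counted for the CRE only. G and C made up 71.6% of the Dusp8 window, beside a median of 52.4% over all windows. Of all windows 7.35% were at least as rich, and shares among windows of like composition were not computed. Dusp1 held 1 full copy at 143 to 136 bases, a separate half-site (TGACG) at 191 to 187 bases and an E-box (CACGTG) at 126 to 121 bases before the start. Of the 9 members 8 had a window, Dusp4 being the one without. Neither Dusp6, Dusp7 nor Dusp10 held a match to any searched motif, Dusp16 held 1 CRE half-site, Dusp2 held 1 E-box, and Dusp5 held 2 adjacent CArG boxes, the site of serum response factor, and a CRE half-site. The half-site lies within the full element and occurred in 17.8% of windows, the E-box in 6.02% and the CArG box in 1.47%. The AP-1 site (TGANTCA, 6.75% of windows), the NF-kB site (7.25%) and the TATA box (TATAAA, 12.4%) were found in none of the 8. Both strands were searched. The matches describe letters in these windows and not binding.

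**Figure D1:**
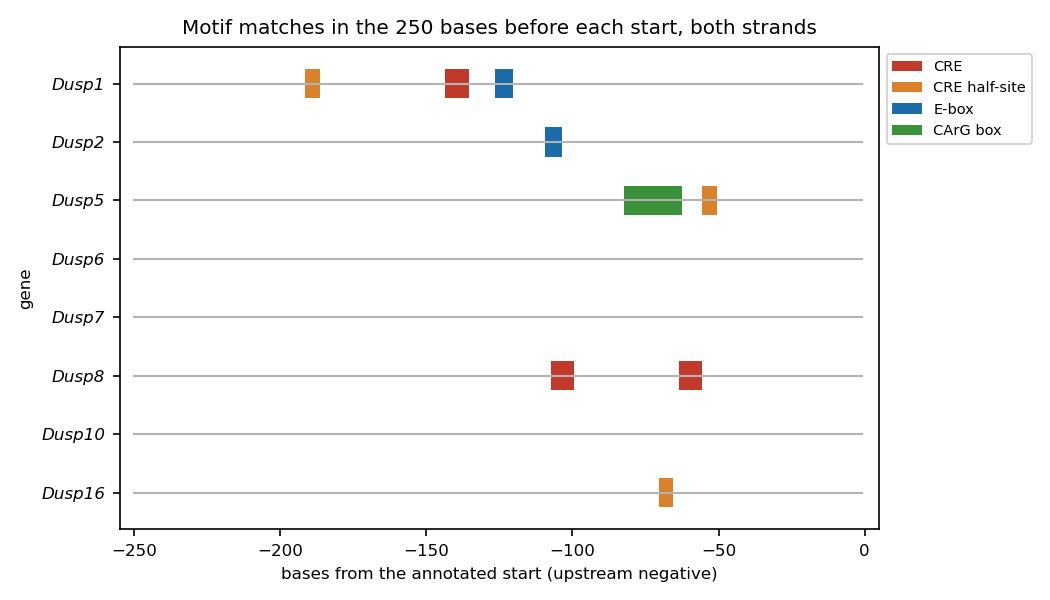
Motif matches in the 250 bases before the annotated start of 8 DUSP genes, on either strand. The horizontal axis is the distance from the start in bases, and bars are matches to the CRE, its half-site (shown only outside full elements), the E-box and the CArG box. Dusp8 has 2 full CREs and Dusp1 has 1.

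The response to the second exposure was read as P+E against P+P in animals that had received saline before, and as E+E against E+P in animals that had met the solvent before. These 2 comparisons share no array, and pairs of ratios below are in this order. Dusp8 was higher after ethylbenzene in both, by log2 ratios of 2.50 and 2.43, and was the only one of the 7 members past the filter that was at least 2-fold higher in both. Dusp6 and Dusp16 were higher by less than 2-fold in both, whereas Dusp1 was at -0.16 and 0.14. No member past the filter was at least 2-fold lower in either comparison. Log2 ratios are on a scale of log2(signal + 43.2) after quantile normalization, which understates differences of low signals. A 2-fold difference was used as a rule of size and is no test.

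At least 2-fold higher on P+E than on P+P were 2 of the 7 members (Dusp4 and Dusp8), beside 7.08% of all genes past the filter, and none was lower, beside 7.24%. On E+E against E+P it was 1 of the 7 (Dusp8), beside 7.45% of all genes, and again none lower, beside 7.26%. In both comparisons together 1 of 7 was higher, beside 3.15% of genes, and none lower, beside 2.06%. Above 0 in both were 4 of 7 (Dusp6, Dusp8, Dusp10 and Dusp16), beside 27.7% of genes, and the 2 ratios had opposite signs in 2 of 7 (Dusp1 and Dusp4), beside 34.6%. The median log2 ratio of the 7 members was 0.71 and 0.47, where that of all genes was -0.07 and -0.05. With 7 genes, each member weighs heavily in these shares, and Dusp8 passed the filter through its signals on the ethylbenzene arrays. Over all 9 members without a filter, 2 were higher (Dusp4 and Dusp8) and 1 lower (Dusp2) in the first comparison, and 2 higher (Dusp5 and Dusp8) and 1 lower (Dusp2) in the second. The shares above are of genes past the filter. Those of all genes without it were not computed, so these counts have no share beside them. With signals under the filter level of 133 set to it, Dusp2 and Dusp5 had no ratio other than 0, and Dusp4 fell short of 2-fold.

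**Figure D2:**
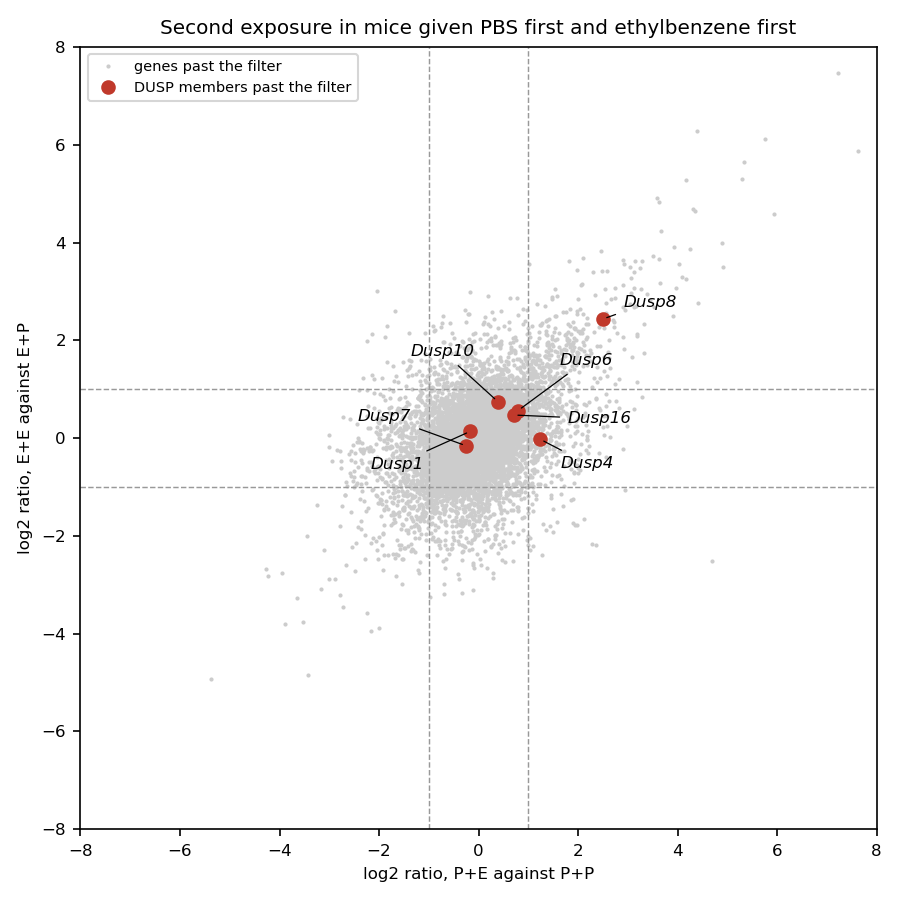
Log2 ratio of the second exposure after saline (horizontal axis, P+E against P+P) and after an earlier exposure (vertical axis, E+E against E+P), 1 point per gene. Grey points are the 11523 genes past the filter, red points the 7 DUSP members among them, and dashed lines mark 2-fold. Dusp8 lies at 2.50 and 2.43, while Dusp1 and Dusp7 lie near 0.

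Dusp8 encodes a phosphatase that acts on JNK and p38. The probe set with the highest mean signal (1428864_at) read 55.1 and 68.4 on the saline arrays P+P and E+P, and 554 and 575 on the ethylbenzene arrays P+E and E+E, in deposited signal. The pair of arrays after a second dose of saline was thus low and the pair after ethylbenzene high, with no overlap. How many of all genes were separated in this way was not counted, so such separations are only described, here and below. Both saline signals were under the filter level of 133. With that level in their place, this probe set was 4.18-fold higher on P+E than on P+P. On E+E against E+P it was 4.34-fold higher. The level is not a detection call, so these values are no lower bounds.

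The other Dusp8 probe sets were not of one kind. Probe set 1418714_at read 66.4 (P+P) and 26.1 (E+P) after saline, against 450 (P+E) and 320 (E+E) after ethylbenzene, with log2 ratios of 2.05 and 2.31. It separated the arrays in the same way, and was 3.34-fold and 2.33-fold higher with signals under the filter level set to it. Probe set 1447346_s_at had signals of 72.0, 158, 333 and 143. Its first ratio was 1.56, but the second was -0.25, since E+E did not exceed E+P. With the same floor these were 1.28 and -0.32. Over the 363 genes that reached 2-fold higher in both comparisons, 233 further probe sets passed the filter. Of these 87.1% were above 0 in both ratios and 51.9% at least 2-fold higher in both. For Dusp8, 1 of its 2 further probe sets (1418714_at) met both conditions.

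**Figure D3:**
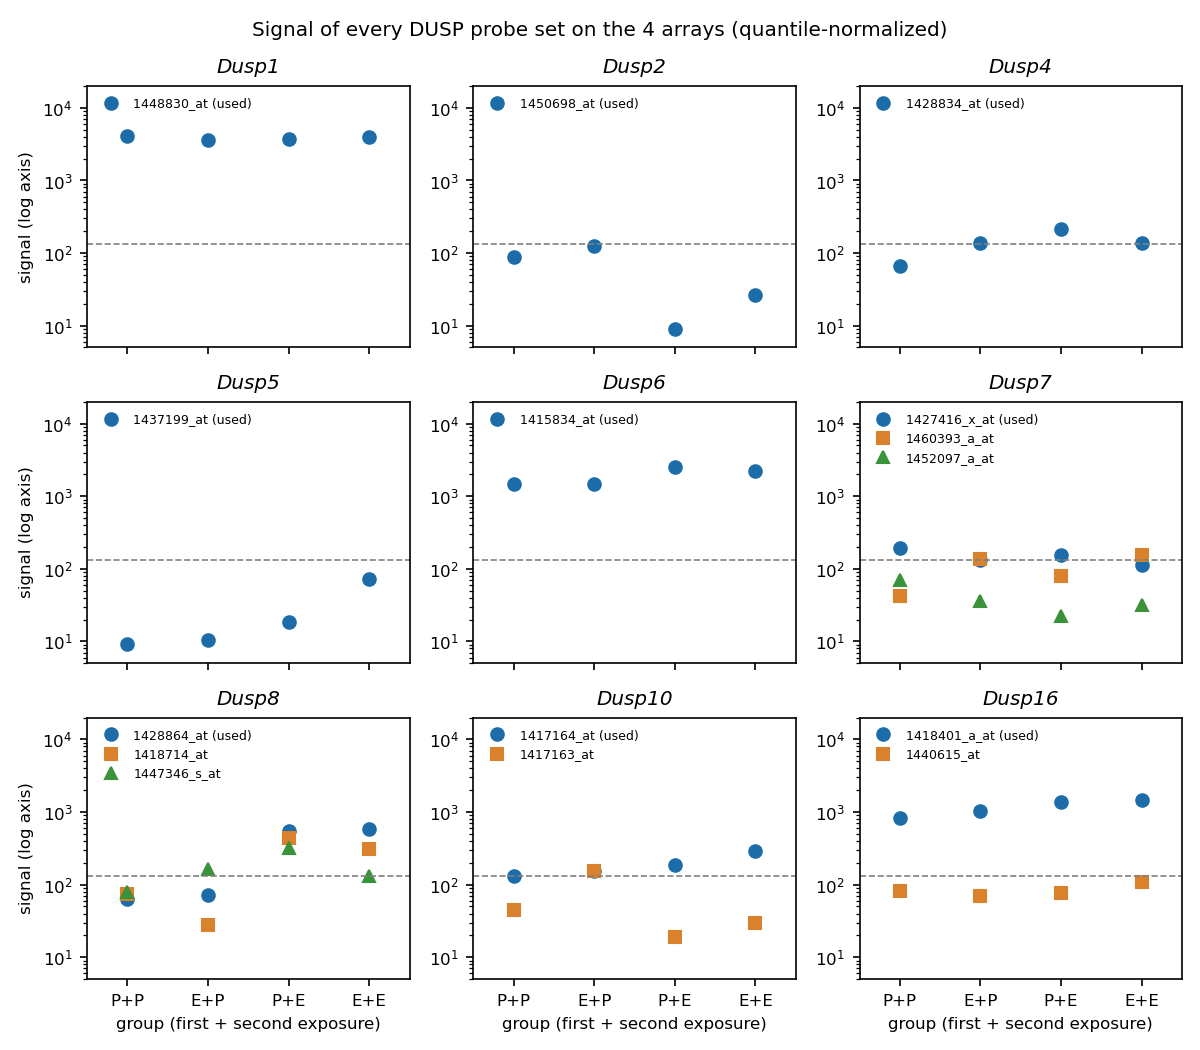
Quantile-normalized signal (log axis) of every probe set of the 9 DUSP genes on the arrays of the 4 groups, 1 array per group and so no error bars. Marker shapes are probe sets, and the dashed line is the filter level of 133. For Dusp8 the 2 probe sets 1428864_at and 1418714_at are above the line on P+E and E+E only, Dusp1 is level across the arrays, and the probe sets of Dusp7 and of Dusp10 have different orders.

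The genes nearest to Dusp8 in their pattern over the 4 arrays were Jun, Nedd4l and Cytip. Likeness was the Euclidean distance between log2 values centred on each gene's mean, over the 4 arrays, among 11522 other genes. Jun, which encodes the AP-1 subunit that JNK phosphorylates, had a distance of 0.15, and read 416 (P+P) and 471 (E+P) after saline, against 2580 (P+E) and 2377 (E+E) after ethylbenzene. Nedd4l, a ubiquitin ligase gene, had a distance of 0.18 and log2 ratios of 2.71 and 2.37. Cytip, which encodes a cytohesin-binding protein, had a distance of 0.23 and ratios of 2.41 and 2.26. The saline signals of Dusp8 and Cytip were under the filter level, so their distances are not exact. Measurements on 4 arrays hold few independent patterns, and no shared control follows from this order.

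**Figure D4:**
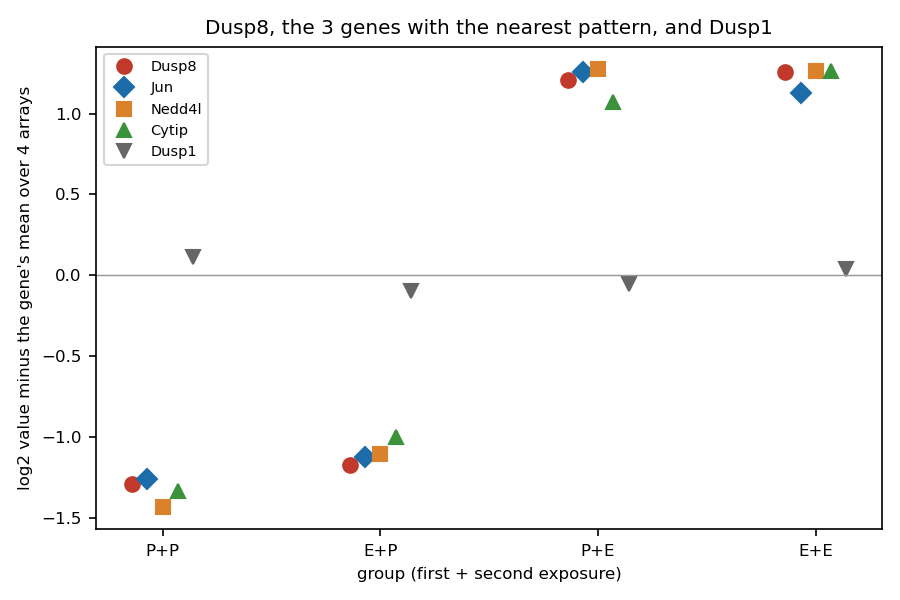
Log2 value minus the gene's own mean over the 4 arrays (vertical axis) for Dusp8, the 3 genes with the nearest pattern (Jun, Nedd4l and Cytip) and Dusp1, by group, 1 array each. The first 4 genes are below 0 on P+P and E+P and above 0 on P+E and E+E, while Dusp1 stays near 0.

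The other members that prefer JNK and p38 differed less. Dusp16 (1418401_a_at) read 840 (P+P) and 1044 (E+P) after saline, and 1353 (P+E) and 1421 (E+E) after ethylbenzene. Both ethylbenzene arrays were above both saline arrays, and the log2 ratios were 0.71 and 0.47, or 1.63-fold and 1.39-fold. A second Dusp16 probe set, 1440615_at, was low on every array (73.4, 66.6, 80.7 and 117), and its ratios were -0.07 and 0.43. Dusp10 (1417164_at) had signals of 119, 145, 197 and 297 and log2 ratios of 0.39 and 0.75, with the saline arrays again the lower pair. Its other probe set, 1417163_at, gave 38.9, 145, 21.2 and 32.9, with ratios of -0.49 and -1.44. The direction for Dusp10 therefore depended on the probe set, and only 1417164_at passed the filter.

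The nuclear, inducible enzymes showed no common direction. Dusp1, often the first of the family to be induced by stress and by glucocorticoids, read 4260 (P+P) and 3647 (E+P) after saline, against 3621 (P+E) and 3924 (E+E) after ethylbenzene on its 1 probe set. The saline and ethylbenzene arrays overlapped, and the largest of its 4 ratios was 1.15-fold. Ratios at least as large in size as those of Dusp1 were found in 75.4% and 79.4% of genes. Dusp4 (1428834_at) read 59.1 (P+P) and 131 (E+P) after saline, against 228 (P+E) and 146 (E+E) after ethylbenzene. P+P was lowest and P+E highest, and the log2 ratios were 1.24 and -0.02. With P+P at the filter level, the first became 0.70, short of 2-fold, and the second was 0.12 on the signals as deposited.

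Dusp2 and Dusp5 stayed below the filter level. Dusp2, best known from activated leukocytes, read 80.6 (P+P) and 117 (E+P) after saline, against 9.9 (P+E) and 28.9 (E+E) after ethylbenzene. The ethylbenzene arrays were the lower pair (log2 ratios of -1.35 and -1.28). Dusp5, an ERK-specific nuclear enzyme, read 8.2, 9.6, 20.4 and 79.5 in the same order, with the ethylbenzene arrays the higher pair (0.24 and 1.11). All of these signals lay under the filter level of 133, and with that level in their place all 4 ratios were 0, so the ratios are printed only to describe the signals.

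The cytoplasmic, ERK-directed enzymes were split. Dusp6, a typical feedback target of ERK, read 1473 (P+P) and 1504 (E+P) after saline, against 2489 (P+E) and 2154 (E+E) after ethylbenzene. Both ethylbenzene arrays exceeded both saline arrays, by log2 ratios of 0.79 and 0.56 (1.73-fold and 1.48-fold). Ratios above these were found in 9.85% and 16.3% of genes. Dusp7 had 3 probe sets that disagreed. The one with the highest mean (1427416_x_at) had signals of 181, 123, 169 and 121 and ratios of -0.25 and -0.16, while 1460393_a_at was at 0.53 and 0.13 and 1452097_a_at at -0.79 and -0.10. All 3 carry a suffix for several transcripts, and only the first passed the filter. Dusp9, a close relative of Dusp6 that is not among the 9, had no probe set past the filter. The one with the highest mean (1433845_x_at) had signals of 33.7, 43.3, 124 and 154. The others did not show this order: 1454737_at read 76.2, 15.6, 10.5 and 81.6, and 1433844_a_at 35.8, 32.6, 17.9 and 17.9.

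The size of a ratio must be read against signal. Dusp4, Dusp7, Dusp8 and Dusp10 belonged to the lowest of 3 equal groups of genes by mean signal, where 22.7% and 22.2% of genes were at least 2-fold apart in either direction in the 2 comparisons. Dusp1, Dusp6 and Dusp16 belonged to the highest group, where the shares were 9.24% and 10.2%. In the lowest group 2.24% of genes were, like Dusp8, 2-fold or more higher in both comparisons.

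What remained of the first exposure 7 days on was read as E+P against P+P where the second injection was saline, and as E+E against P+E where it was ethylbenzene. By the probe set that stands for each gene, no member past the filter was at least 2-fold apart in either comparison. All genes past the filter were so in 2.88% (higher) and 3.17% (lower) of cases in the first and in 4.43% each way in the second. Dusp8 was at 0.11 and 0.05 on 1428864_at, but at 0.76 and -1.05 on 1447346_s_at, where E+E thus lay 2.08-fold under P+E, and at -0.72 and -0.47 on 1418714_at. Dusp6 was at 0.02 and -0.21, and Dusp1 at -0.21 and 0.10. Dusp4 was at 0.73 and -0.53 and Dusp10 at 0.17 and 0.53. With the low P+P signal of Dusp4 at the filter level, its first value was 0.07. Probe sets below the filter gave other values. Dusp10 was at 1.17 and 0.22 on 1417163_at. Dusp7 was at 1.08 and 0.67 on 1460393_a_at and at -0.52 and 0.18 on 1452097_a_at, in place of -0.45 and -0.37. With signals under the filter level set to it, the first values of 1417163_at and 1460393_a_at were 0.21 and 0.06. The median of the 7 members was 0.11 and 0.05, beside -0.02 and 0.00 over all genes.

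Whether the first exposure went with another response to the second was described by subtracting the P+E ratio from the E+E ratio, so that a negative value stands for a smaller response after an earlier exposure. This difference holds the error of all 4 arrays. It was -0.06 for Dusp8, -0.23 for Dusp6, -0.24 for Dusp16, 0.36 for Dusp10, 0.09 for Dusp7, 0.30 for Dusp1 and -1.26 for Dusp4. The value for Dusp8 is not exact, since both of its saline signals were under the filter level. With that level in their place it was 0.06, and with its probe sets averaged -0.54. The value for Dusp4 became -0.73 at the filter level. On the Dusp8 probe set 1418714_at the difference was 0.26, and on 1447346_s_at -1.81. The sign for Dusp10, Dusp16 and Dusp7 also depended on the probe set. Dusp10 was at -0.95 on 1417163_at and Dusp16 at 0.50 on 1440615_at. Dusp7 was at -0.41 on 1460393_a_at and at 0.69 on 1452097_a_at. None of these further probe sets of Dusp10, Dusp16 and Dusp7 passed the filter. Over all genes the middle 95% of differences ran from -1.65 to 1.78.

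Other genes of MAP kinase signalling were taken from lists by role, and counts refer to members past the filter. Over all genes past it, 3.15% were at least 2-fold higher and 2.06% at least 2-fold lower in both second-exposure comparisons. Of 14 other dual specificity phosphatases none reached 2-fold in one direction in both comparisons, with medians of -0.07 and 0.02. Of 6 tyrosine and serine/threonine phosphatases that act on MAP kinases none was either (medians 0.03 and 0.20). Then come the kinases that DUSP enzymes act on. Of 7 MAP kinase genes none did so either, and the JNK gene Mapk8 was at -0.03 and -0.08, the JNK gene Mapk9 at -0.38 and 0.05 and the p38 gene Mapk14 at 0.49 and 0.18. These were chosen as substrates of the enzymes after values were seen.

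Some kinases further upstream differed. Of 14 MAP3K and RAF genes 3 reached 2-fold higher in both, beside 3.15% of all genes, and none lower, beside 2.06%. Map3k8, also called Tpl2, which activates ERK in inflammation, read 104 (P+P) and 10.7 (E+P) after saline, against 631 (P+E) and 659 (E+E) after ethylbenzene. Map3k6 had signals of 37.5, 176, 607 and 756, and Map3k1, an upstream activator of JNK, of 213, 267, 1025 and 1381. For all 3, which were picked for being at least 2-fold higher in both comparisons, both ethylbenzene arrays were above both saline arrays. The log2 ratios were 2.10 and 3.68 for Map3k8, 2.93 and 1.82 for Map3k6 and 2.00 and 2.18 for Map3k1. With signals under the filter level set to it, Map3k8 was at 2.26 and 2.32 and Map3k6 at 2.20 and 2.04. Both saline signals of Map3k8 were under that level. It passed the filter through its ethylbenzene arrays, so the count of 3 is not independent of the filter. Of 6 MAP kinase kinase genes 1 was lower in both, beside 2.06% of all genes: Map2k6, which activates p38, had signals of 526, 607, 165 and 42.3 and ratios of -1.55 and -2.99. With the low E+E signal at the filter level the second was -2.18.

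Among 12 other feedback inhibitors and modulators of MAP kinase signalling, 3 reached 2-fold higher in both, beside 3.15% of all genes. All 3 were of the Gadd45 family, whose products bind upstream kinases of JNK and p38. Gadd45a was at 4.10 and 3.29, Gadd45b at 3.62 and 3.66 and Gadd45g at 3.52 and 2.68. The Sprouty and Spred genes, inhibitors of the route from receptors to ERK, were not among them. The list had medians of 0.46 and 0.58. Of 12 typical ERK-responsive transcripts, 3 were higher in both, beside 3.15% of all genes, and 1 lower, beside 2.06%. Egr1, an immediate early transcription factor gene, was at 3.06 and 2.98, Ier3 at 1.01 and 3.56 and Fos at 1.69 and 2.58. With signals under the filter level set to it, Fos was at 0.51 and 1.46 and Ier3 at 0.93 and 2.56, so that of these 3 only Egr1 still reached 2-fold in both. Fos and Ier3 were under that level on both saline arrays. They passed the filter through their ethylbenzene arrays, so the count of 3 is not independent of the filter. Ccnd1, the cyclin D1 gene, was at -1.59 in both. Of 7 kinases activated by MAP kinases 1 was higher in both, beside 3.15% of all genes: Mapkapk2, a p38 substrate, at 1.12 and 1.24.

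**Figure D5:**
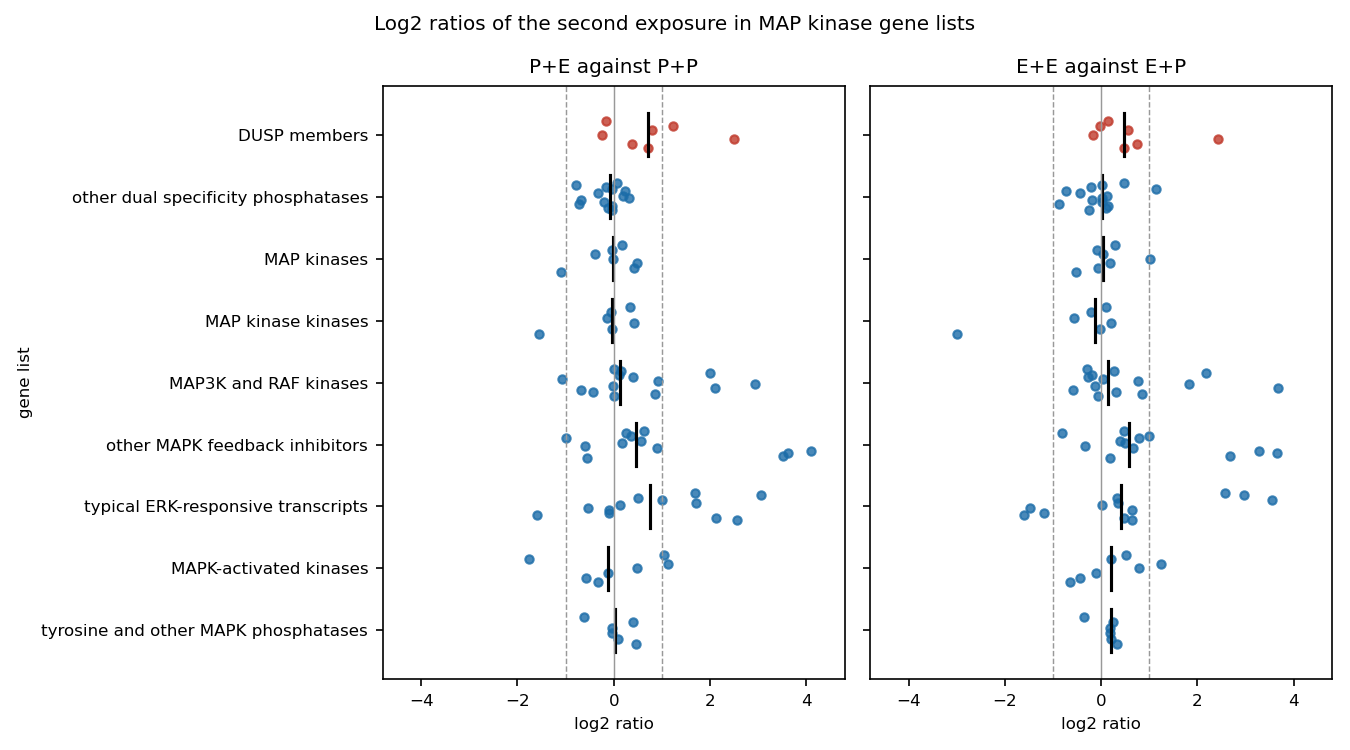
Log2 ratios of the second exposure for genes past the filter in 9 lists of MAP kinase genes, P+E against P+P (left) and E+E against E+P (right). Each point is a gene, black bars are list medians and dashed lines mark 2-fold. The DUSP members (red) have medians of 0.71 and 0.47, with Dusp8 the red point farthest to the right in both.

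Markers of some other cell types moved with the second exposure. The summed signal of 8 measured neutrophil markers was 1187 (P+P) and 843 (E+P) after saline, against 4570 (P+E) and 6705 (E+E) after ethylbenzene. Of the 5 past the filter 2 (S100a8 and S100a9) reached 2-fold higher in both comparisons, beside 3.15% of all genes. The other 3 past it did not: Ngp was at -0.89 and 1.33, Camp at -1.51 and 0.05 and Csf3r at 2.08 and 0.08, while Elane, Ltf and Cxcr2 stayed under the filter. The higher sum therefore lay mostly in S100a8 and S100a9. S100a9 passed the filter only through its ethylbenzene arrays, so the count of 2 is not independent of the filter. The sum of 7 pancreatic acinar markers was 576, 520, 6609 and 6228, and all 7 were at least 2-fold higher in both, beside 3.15% of all genes. Several of the 7 passed the filter only through their ethylbenzene arrays, so this count is not independent of the filter. Ctrb1, for example, read 9.7, 11.6, 775 and 793, and Clps 4.8, 12.5, 824 and 501. The sum of 10 Kupffer cell markers was 18230 (P+P) and 27714 (E+P) after saline, against 15613 (P+E) and 17916 (E+E) after ethylbenzene. Sums of 10 sinusoidal endothelial markers (11538 to 13761), 10 stellate cell markers (21731 to 25135) and 8 lymphocyte markers (695 to 1044, with 3 of 8 past the filter) had narrower ranges. Among these last 4 lists, 1 gene, the endothelial marker Lyve1, reached 2-fold higher in both comparisons (2.48 and 3.41). It was 1 of 10 endothelial markers past the filter, beside 3.15% of all genes. The part of neutrophil and acinar transcripts in the ratios of Dusp8, Dusp6 and Dusp16 was not tested.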

How the data were processed

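The deposited table held intensities, linear Affymetrix probe set signals for 45101 probe sets on 4 arrays, which the authors had scaled to a common trimmed mean. The summarisation software was not given in the sources used here. Depth has no counterpart on arrays, and the number of arrays limits the precision. Signals were quantile-normalized over the 4 arrays and turned to log2(signal + 43.2), the pseudocount being the 25th percentile of all deposited signals (Python 3.11.15, pandas 2.3.3). Names came from the platform annotation, updated through Entrez identifiers to RefSeq symbols (GRCm38.p6): 34958 probe sets had 1 symbol, 932 several and 9160 none, 64 were controls and 34754 matched by identifier. The probe set with the highest mean signal stood for a gene. The filter kept genes at or above a mean of 133, the median of all probe sets. It is not a detection call.

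With 1 array per group no test was run, and ratios describe these arrays. Genes were named by rule: all members with every probe set, up to 4 genes of each list with a 2-fold difference in one direction in both second-exposure ratios, and the 3 nearest patterns. Members, lists and motifs were chosen with earlier results of these data known. The steps were run on simulated arrays with known changes as a check of the code. The simulated scatter was set beforehand and was the same at every signal level, so the run is no measure of error here. Alternatives were other scalings, pseudocounts, filters and probe set rules.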

Additional observations from a re-analysis of the deposited data

Results flagged for a closer look

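In 2 of the 7 members past the filter the second-exposure ratios had opposite signs in mice given saline first and mice given ethylbenzene first, beside 34.6% of all genes past it. The difference was not tested in either case. For Dusp4 the ratios were 1.24 and -0.02, a difference of -1.26, which was -0.73 with signals under the filter level set to it. On the signals as deposited its second ratio was 0.12, so that the signs no longer differed. For Dusp1 the ratios were -0.16 and 0.14, a difference of 0.30, with the same signs under the other scalings (-0.23 and 0.10 as deposited, -0.29 and 0.07 at a common 75th percentile).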

How the results depend on the processing

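The number of DUSP members at least 2-fold apart was 2 (P+E against P+P), 1 (E+E against E+P) and 0 in both first-exposure comparisons. With signals floored at the filter level the first became 1, Dusp8 alone. Without a low-level filter the first became 3, with Dusp2 added, and the second 3, with Dusp2 and Dusp5 added. The shares of all genes without the filter were not computed. With the filter at the 75th percentile both became 0, because only 3 members (Dusp1, Dusp6 and Dusp16) then passed. On the Dusp8 probe set 1447346_s_at the ratio of E+E against E+P was -0.25 in place of 2.43, and the cause was not tested. Averaging its probe sets gave Dusp8 2.04 and 1.496. In the other alternatives, the single further probe sets set aside, its ratios ran from 2.06 to 2.86 and from 2.12 to 2.76. Normalizing without the P+P array, added after the data were seen, gave 2.40 for E+E against E+P. Over the single members, 374 of 403 values moved by less than 1.5-fold, and 29 by more. Many of the 403 could not move, so this share is no measure of stability. The filter settings change which members are counted but no ratio. Averaging probe sets leaves members with 1 probe set as they were. Leaving out probe sets for several transcripts changes only members represented by one. The sign changed in 30 of the 403, of which 15 moved by 1.5-fold or more, but in only 1 where the value was at least 2-fold, the Dusp8 ratio just given. Dusp10 was at -0.49 and -1.44 on 1417163_at and at -0.05 and -0.35 with its probe sets averaged, in place of 0.39 and 0.75. Dusp7 was at 0.53 and 0.13 on 1460393_a_at in place of -0.25 and -0.16. Without probe sets for several transcripts, Dusp16 was at -0.07 and 0.43, and Dusp7 had no value. No paired analysis was possible because each group was 1 array of pooled RNA, and no replicate could be left out. Signals near the filter level limit what can be said of Dusp2, Dusp4, Dusp5, Dusp7 and Dusp10.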

Other observations

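Of the 12 typical ERK-responsive transcripts past the filter, Hbegf, Plaur and Myc were at least 2-fold higher on P+E than on P+P but not on E+E against E+P. They were chosen after their values were seen, and the difference between the comparisons was not tested. Hbegf, a growth factor gene, read 13.1 (P+P) and 93.1 (E+P) after saline, against 309.9 (P+E) and 189.7 (E+E) after ethylbenzene, with log2 ratios of 2.56 and 0.65. With signals under the filter level set to it, these were 1.17 and 0.43. Plaur, the urokinase receptor gene, read 108.5, 254, 662 and 391.9 in the same order, with ratios of 2.13 and 0.47 (2.33 and 0.54 with the filter level as a floor and no pseudocount). Myc read 319.5, 1292, 1166 and 1627, with ratios of 1.70 and 0.36. The first of each pair of ratios uses the P+P array, whose 18S control signal stood apart, and the part of that array in them was not tested. In the comparison of E+E with P+E, which does not use it, Hbegf was at -0.62, Plaur at -0.75 and Myc at 0.46.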
